A study of Arabidopsis thaliana with 12 samples.

Results

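Photosystem and antenna subunit genes were represented by 5 nuclear genes of Arabidopsis thaliana, PSB27 (AT1G03600), PSBY (AT1G67740), PSBW (AT2G30570), PSAN (AT5G64040) and LHB1B2 (AT2G34420). The genes were chosen by annotation, with earlier results of these data known. The platform annotation assigned each a probe of its own, and each had 1 such probe among the 3248 features tested. Transcript levels had been measured with 1-channel arrays in 6 samples titled stn7 and 6 samples titled WT, all of the ecotype columbia 0. By their titles the stn7 samples are of a mutant of STN7. Its allele, the tissue, age, growth light and number of plants per sample stay unstated in the sources used here. The source name says mutant for 1 of the stn7 samples, sample 1, and WT for the other 5, and the groups follow the titles. STN7 itself was named on 0 probes with an annotation entry, so the mutation could not be checked in these values.

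Light drives electrons through photosystem II, the cytochrome b6f complex and photosystem I in the thylakoid membrane of the chloroplast. The light-harvesting complex LHCII feeds mainly photosystem II, and in state transitions the kinase STN7 phosphorylates LHCII proteins so that part of this antenna serves photosystem I. Chloroplast genes encode the reaction-centre cores of both photosystems, while nuclear genes, such as those described here, encode small and lumenal subunits, assembly factors and the antenna.

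Each array gave relative intensities on a linear scale, with a median between 0.354 and 0.414 in the stn7 samples and between 0.297 and 0.369 in the WT samples. Consecutive samples of a group (1 with 2, 3 with 4, 5 with 6) moved together across the array, and each such pair was averaged and counted once, which gave 3 replicates per group and limits the precision. No label states separate plants, so the p-values reflect the spread between samples only, and that spread may be technical. Levels below are given as deposited intensities, and differences as stn7 minus WT on the log2 scale after quantile normalization, with the standard error and the Benjamini-Hochberg adjusted p of limma. A feature was called at an adjusted p under 0.05, which 15.2% of all features reached, 6.53% of all features as higher in stn7 and 8.68% as lower. Of the 5 genes 1 was called, PSB27, as lower, and the other 4 were not. The median difference of the 5 genes was 0.12 log2, against 0.05 over all features. Over the brightest 20% of features, the called share was 21.8%, and 12% were called lower.

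PSB27 encodes a lumenal protein that binds photosystem II during its assembly and repair and is not part of the working complex. Its intensity was 1.07, 1.16, 0.945, 1.13, 1.12 and 1.27 in stn7 samples 1 to 6, against 2.41, 2.48, 2.01, 2.01, 1.57 and 1.51 in WT samples 1 to 6. All 6 stn7 samples lay below all 6 WT samples, a separation that 7.97% of features showed in this direction in the deposited values and 11.3% after quantile normalization. The pair means were 1.12, 1.04 and 1.196 in stn7, and 2.44, 2.01 and 1.54 in the WT. Pairs thus spanned 1.15-fold among stn7 samples and 1.59-fold among WT samples, and the WT pair of samples 5 and 6 lay nearest to the stn7 samples. PSB27 fell by 0.81 on the log2 scale (SE 0.19, n = 3 per group, limma adjusted p = 0.0317), with a 95% confidence interval from -1.25 to -0.37. This corresponded to a level 1.75-fold lower in stn7, with an interval from 1.29-fold to 2.38-fold. In bulk RNA of this kind, fewer cells of a type and less RNA per cell cannot be told apart.

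**Figure D1:**
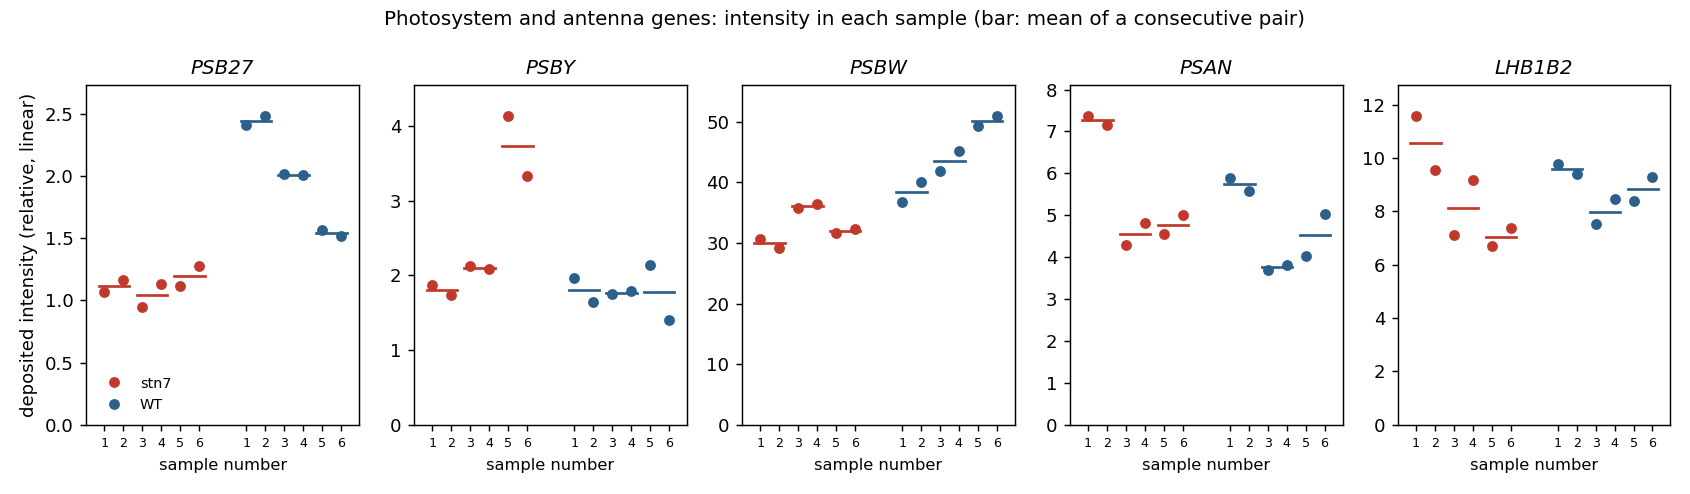
Deposited relative intensity (linear axis from 0) of each gene in stn7 samples 1 to 6 (red, left) and WT samples 1 to 6 (blue, right), where points are samples and bars the mean of a consecutive pair. PSB27 was below 1.28 in every stn7 sample and above 1.51 in every WT sample, PSBY was high in stn7 samples 5 and 6, and LHB1B2 overlapped between the groups.

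The position of PSB27 in the intensity order of each array, which does not depend on the scaling between arrays, differed in the same direction. PSB27 ranked between 409 and 607 from the top of 3437 probes in stn7 samples, and between 203 and 334 in WT samples. As a percentile over the features tested it averaged 85.2 ± 1.61 in stn7 and 92.0 ± 1.86 in the WT (SD, n = 3 pairs each). An exact two-sided permutation test over the pairs gave p = 0.1, the smallest that 3 against 3 can give. Set against the mean log2 intensity of the other 4 genes in the same sample, where a scaling factor of the array cancels, PSB27 averaged -2.80 ± 0.06 in stn7 and -1.93 ± 0.34 in the WT. The sample values ran from -2.97 to -2.64 in stn7, and from -2.33 to -1.63 in the WT. They did not overlap, and the difference was -0.87 log2. Such a ratio within an array shows unequal change only, and it was chosen with the values known and has no test.

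The call of PSB27 held in every one of the 12 fits without a single sample, at -0.86 to -0.76 log2 and with an adjusted p from 0.0304 to 0.0439. In these fits the other sample of the pair stood for it, so 3 replicates per group remained. It held in 1 of the 6 fits without a whole pair, the fit without WT samples 5 and 6 (-0.97 log2, adjusted p = 0.0300). In the other 5 fits PSB27 differed by between -0.86 and -0.66 log2 with an adjusted p from 0.0643 to 0.105. Fits without a pair called between 4 (without stn7 samples 1 and 2) and 284 (without stn7 samples 3 and 4) of all features, against 494 with every pair. With the pair number as a block the difference missed the threshold (limma, adjusted p = 0.0503). Across all 41 alternative settings PSB27 was lower in stn7 in 41, and called in 25. Of these calls 12 came from the fits without a single sample, 1 from those without a pair and 12 from other settings. The settings share samples, so their count is not independent support.

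Differences on these arrays varied with the probe number, for a cause that was not tested. Probe numbers recurring at a fixed interval were divided into 48 sets, a division taken from an earlier processing of the same values. The set of PSB27 held 72 features with a median difference of -0.19 log2 and an interquartile range from -0.43 to 0.12. PSB27 was lower than 67 of these features and higher than 4, and 2 of the 72 were called, both lower and PSB27 among them. In the WT pairs the set deviated by 0.54, 0.09 and -0.40 log2 from the mean over all pairs, while PSB27 itself stood at 1.26, 1.00 and 0.64 log2. In the stn7 pairs the set deviated by -0.09, -0.16 and 0.06 log2, and PSB27 stood at 0.20, 0.02 and 0.25 log2. The pairs in which the set was high were thus those in which PSB27 was high within each group. With each sample centred on its set, PSB27 stood at 0.31, 0.17 and 0.19 log2 in stn7 and at 0.72, 0.87 and 1.05 log2 in the WT. The groups still did not overlap, the WT range narrowed to 0.34 log2, against 0.62 before centring, and the order of the WT pairs turned round. The set-centred difference was -0.66 log2 (SE 0.14, limma adjusted p = 0.0370), where 5.67% of features were called and 3.88% were called lower. It did not pass in any of the 6 set-centred fits without a pair, at -0.74 to -0.57 log2 and with an adjusted p from 0.0663 to 0.129. Centred instead on probes of neighbouring number, PSB27 differed by -0.75 log2 (SE 0.11, limma adjusted p = 0.00814), where 13.6% of features were called and 8.1% were called lower.

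**Figure D2:**
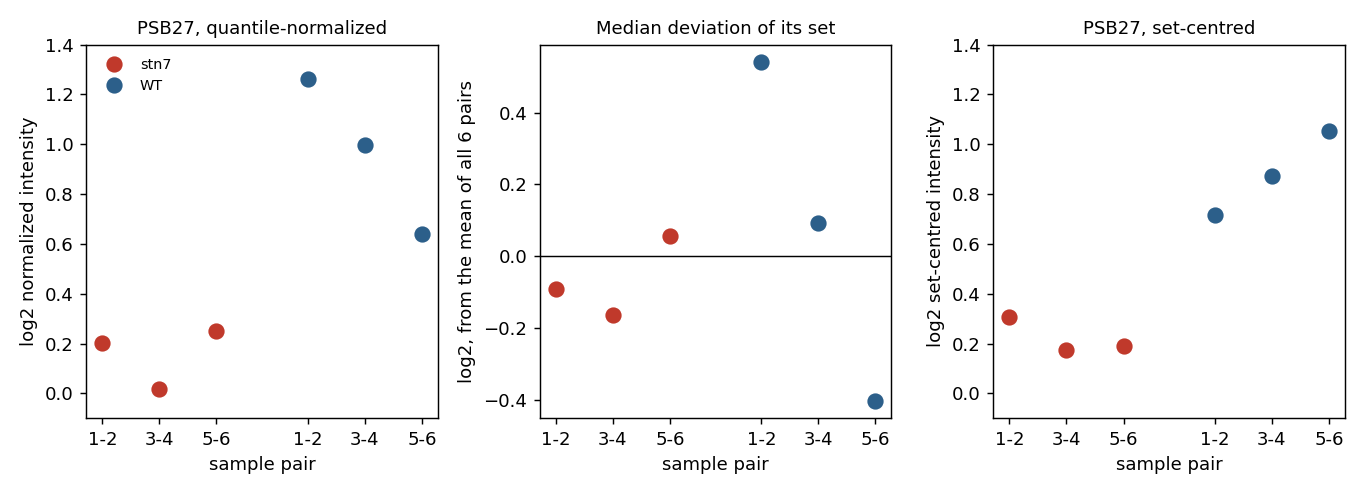
PSB27 in the 3 pairs of stn7 (red, left) and WT (blue, right) samples, as log2 normalized intensity, beside the median log2 deviation of the features of its probe-number set and the log2 value after set centring. The set lay between -0.40 and 0.54 in the WT pairs, and after centring the stn7 pairs (0.17 to 0.31) stayed below the WT pairs (0.72 to 1.05).

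LPA19 (AT1G05385), a Psb27 homologue that acts in the C-terminal processing of the D1 protein of photosystem II, was the only other gene of the light-reaction lists with a measured level. These lists held 210 gene names for photosystem subunits, antenna proteins, electron carriers, the ATP synthase and assembly factors. CCB3, a cytochrome b6 assembly factor, was at the floor of the measured range in all 12 samples, and a further 7 probes named a listed gene together with other genes and were not assigned. LPA19 gave 0.474, 0.470, 0.447, 0.471, 0.493 and 0.492 in stn7 samples 1 to 6, against 0.447, 0.462, 0.519, 0.548, 0.739 and 0.661 in WT samples 1 to 6. In these deposited values the samples overlapped, with WT samples 1 and 2 inside the stn7 range or just below it. After quantile normalization the pairs stood at -1.07, -1.27 and -1.20 log2 in stn7 and at -1.03, -0.93 and -0.37 log2 in the WT. Single samples still overlapped. LPA19 differed by -0.41 log2 (SE 0.20, limma adjusted p = 0.209), with a 95% confidence interval from -0.87 to 0.06, and was not called. Its probe-number set had a median difference of -0.17 log2 and deviated by 0.29 log2 in the WT pair of samples 5 and 6, the pair in which LPA19 was highest. After set centring LPA19 differed by -0.22 log2 (SE 0.15).

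PSBY encodes a precursor that is cut into small membrane proteins at the edge of the photosystem II core. Its intensity was 1.87, 1.74, 2.12, 2.08, 4.13 and 3.33 in stn7 samples 1 to 6, against 1.96, 1.64, 1.75, 1.79, 2.14 and 1.41 in WT samples 1 to 6. Samples 5 and 6 of stn7 lay above every other sample, and the other 4 stn7 samples lay within the WT range. The pair means were 1.80, 2.101 and 3.73 in stn7, a 2.07-fold span, and 1.80, 1.77 and 1.77 in the WT, a 1.02-fold span. The small WT span arose from averaging, since samples 5 and 6 of the WT differed by 0.57 log2 from each other. After quantile normalization all 3 stn7 pairs lay above all 3 WT pairs, as they did for 20.8% of features.

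PSBY differed by 0.46 log2 (SE 0.27, n = 3 per group, limma adjusted p = 0.276), and its 95% confidence interval ran from -0.16 to 1.07. A level up to 2.11-fold higher in stn7, or down to 0.895 of the WT level, was thus within the error. Without stn7 samples 5 and 6 the difference was 0.14 log2, the lowest of the 6 fits without a pair. The direction was higher in stn7 in all 41 alternative settings, and none called it. As a percentile PSBY averaged 93.4 ± 2.40 in stn7 and 91.1 ± 0.17 in the WT (exact permutation test, p = 0.1, the smallest possible with 3 pairs each). Its probe-number set had a median difference of -0.04 log2, and set centring gave 0.54 log2 (SE 0.26).

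PSBW encodes a small membrane subunit of photosystem II that stabilises its supercomplexes with LHCII. Its intensity was 30.6, 29.2, 35.7, 36.4, 31.6 and 32.3 in stn7 samples 1 to 6, against 36.7, 40.1, 41.8, 45.2, 49.2 and 51.0 in WT samples 1 to 6. All stn7 samples lay below all WT samples in the deposited values, by a narrow margin between stn7 sample 4 and WT sample 1. This separation was shown by 7.97% of all features, but by 6 of the 20 brightest, among which PSBW held place 11. The deposited intensity averaged 32.6 ± 3.15 in stn7 and 44.0 ± 5.85 in the WT (SD, n = 3 pairs each). In the deposited values PSBW differed by -0.43 log2 (SE 0.18, limma adjusted p = 0.127), and with arrays centred on their median by -0.66 log2 (SE 0.19, limma adjusted p = 0.0543). Neither passed, where 14.4% and 14.8% of features were called.

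After quantile normalization the difference of PSBW was close to 0. The probe ranked between 9 and 12 from the top of the array in both groups, and quantile normalization assigned each rank a fixed value, so PSBW took 4 distinct values over the 12 samples. Its percentile averaged 99.7 in both groups, and the difference was -0.00 log2 (SE 0.14, limma adjusted p = 0.997), with a 95% confidence interval from -0.33 to 0.33. Of the 20 brightest features 14 were lower in stn7 in the deposited values, with a median of -0.25 log2, while the median over all features was 0.19 log2 higher in stn7. PSBW was thus lower along with most of the brightest features of the stn7 arrays, and it kept its place among them. Set centring turned the value to 0.16 log2 (SE 0.14) and neighbour centring to 0.38 log2 (SE 0.13, limma adjusted p = 0.0859), and neither passed. The direction of PSBW thus depended on the processing.

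PSAN encodes the lumenal photosystem I subunit that takes part in the docking of plastocyanin. Its intensity was 7.37, 7.15, 4.297, 4.82, 4.56 and 4.996 in stn7 samples 1 to 6, against 5.90, 5.58, 3.69, 3.82, 4.04 and 5.04 in WT samples 1 to 6. Samples 1 and 2 were the highest of their group in both stn7 and WT, and the groups overlapped. PSAN differed by 0.38 log2 (SE 0.25, n = 3 per group, limma adjusted p = 0.322), with a 95% confidence interval from -0.19 to 0.95. Without stn7 samples 1 and 2 the difference was 0.16 log2, the lowest of the 6 fits without a pair, which reached 0.55 log2 and called PSAN in 0. With the pair number as a block the standard error was 0.14 and the adjusted p 0.121. The value was 0.23 log2 for the unscaled intensities, -0.00 log2 once arrays were centred on their median, 0.55 log2 (SE 0.26) after set centring and 0.77 log2 (SE 0.26) after neighbour centring, and it passed in none of these. Its probe-number set had a median difference of -0.10 log2 with 11 of 63 features called lower and 0 called higher, and PSAN was higher than 60 of them.

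LHB1B2, also named LHCB1.5, encodes an Lhcb1 protein of LHCII, the class of proteins that STN7 phosphorylates. Its intensity was 11.6, 9.55, 7.11, 9.18, 6.72 and 7.37 in stn7 samples 1 to 6, against 9.77, 9.40, 7.51, 8.45, 8.38 and 9.29 in WT samples 1 to 6. The WT samples lay within the stn7 range, which spanned 1.72-fold against 1.301-fold in the WT. LHB1B2 differed by 0.12 log2 (SE 0.17, n = 3 per group, limma adjusted p = 0.663), with a 95% confidence interval from -0.28 to 0.52, or from 0.825 to 1.44 of the WT level. The Lhcb1 genes are close copies of each other, and how far the probe told them apart was not tested.

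The sign of LHB1B2 changed with the scaling, at -0.06 log2 for the unscaled intensities and -0.29 log2 for arrays centred on their median. After neighbour centring LHB1B2 passed at 0.52 log2 (SE 0.14, limma adjusted p = 0.0484), where 13.6% of features were called and 5.54% were called higher. It did not pass after set centring (0.29 log2, SE 0.20), and over its alternatives the adjusted p ran from 0.0484 to 0.986. LHB1B2 and PSBW fell in the same set of 70 features, which had a median difference of -0.16 log2 with 13 features called lower and 0 called higher. As a percentile LHB1B2 averaged 98.6 ± 0.29 in stn7 and 98.5 ± 0.16 in the WT (exact permutation test, p = 0.7).

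**Figure D3:**
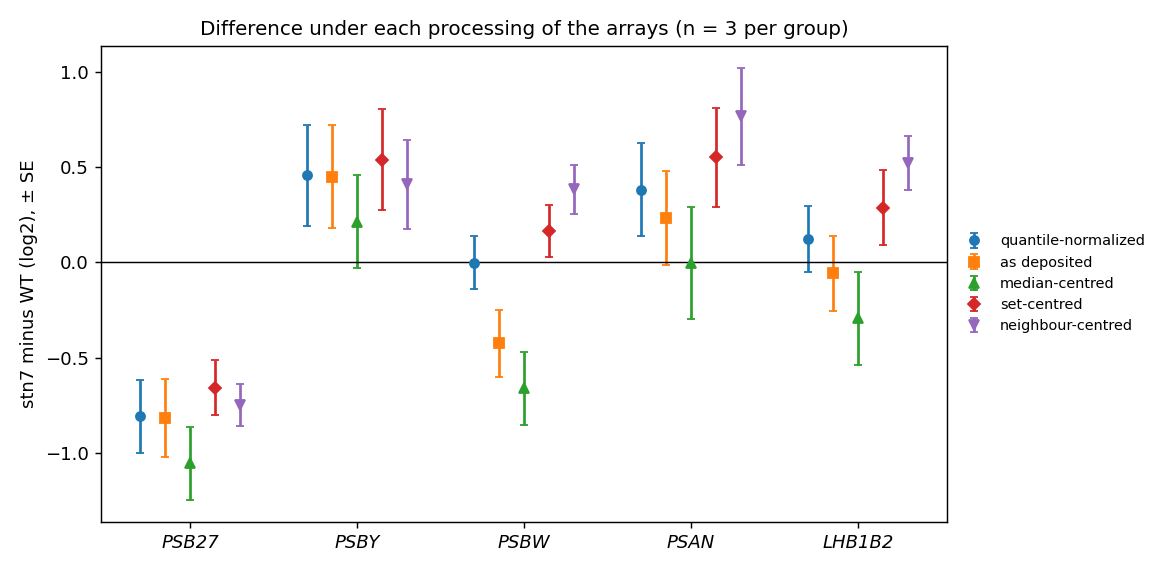
Difference of stn7 minus WT in log2 (points) with its standard error (bars, n = 3 pairs per group) for the 5 genes under 5 ways of processing the arrays. PSB27 lay between -1.06 and -0.66 in all 5, and PSBW ran from -0.66 to 0.38.

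The genes with the most similar course over the 12 samples were looked up among the 560 other named genes above the floor in every sample, by the Pearson correlation of log2 normalized intensity. These points share arrays and consecutive pairs, and the correlations are descriptions. PSB27 was followed most closely by MAMI, a gene for a membrane-associated mannitol-induced protein (r = 0.958, rho = 0.867), and by AT2G38950 (r = 0.943, rho = 0.923), and without the 2 samples farthest from its median r was 0.943 and 0.901. Both of these genes were called lower in stn7, at -1.51 and -0.98 log2. They were picked by correlation over both groups, between which PSB27 did not overlap, so a lower level in stn7 largely follows from the choice. Both lay in the same set of probe numbers as each other, which was not the set of PSB27. LHB1B2 was followed by AT4G07670 (r = 0.873) and by PSAN (r = 0.804, rho = 0.776), with r = 0.770 and 0.774 without 2 samples. PSAN was followed by AT4G07670 (r = 0.827) and AT5G19750 (r = 0.822), with r = 0.549 and 0.584 without 2 samples.

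The antenna gene LHB1B2 and the photosystem I gene PSAN thus shared a neighbour and were close to each other, and in the deposited values both were highest in samples 1 and 2 of either group. PSBY was followed by AT3G56010 (r = 0.905) and by CHLM, the magnesium protoporphyrin methyltransferase gene of chlorophyll synthesis (r = 0.887). Without stn7 samples 5 and 6 these were 0.392 and 0.631, so the first rested on those samples and the second did in part. Over all 12 samples rho was 0.616 and 0.816. PSBW, with 4 distinct values, was followed by LAS (r = 0.815) and AT4G22190 (r = 0.789), with r = 0.777 and 0.819 without 2 samples.

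**Figure D4:**
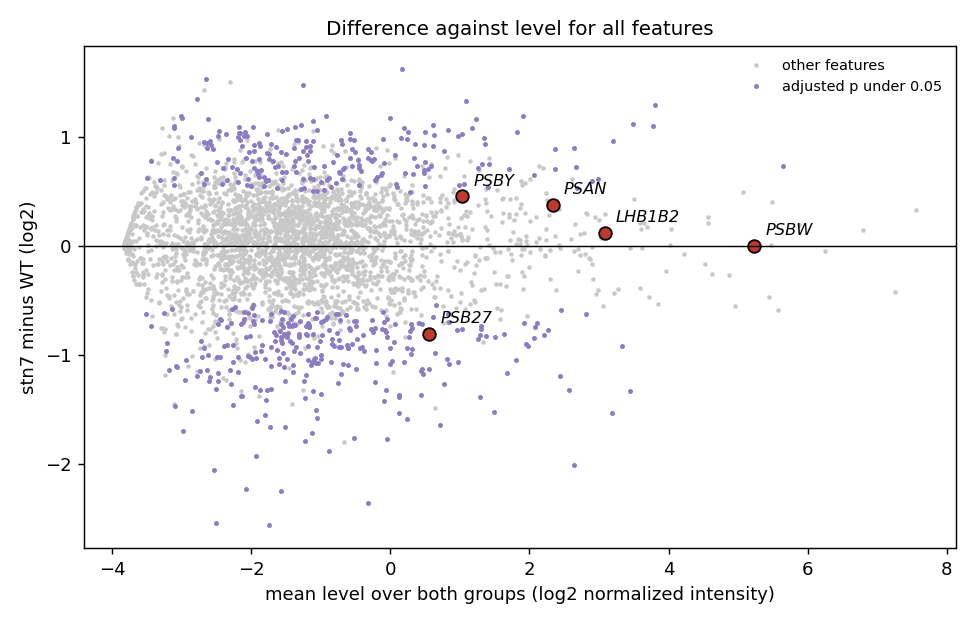
Difference of stn7 minus WT (log2, vertical axis) against the mean log2 normalized intensity over both groups (horizontal axis) for all 3248 features, with features at an adjusted p under 0.05 in purple and the 5 genes in red. PSB27 at -0.81 lies among called features, and PSBY, PSAN, LHB1B2 and PSBW lie between -0.00 and 0.46.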

How the data were processed

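The deposited table holds intensities on a linear scale, never below 0, and how the authors made them is not given in the sources used here. Of 3439 probes 3437 had values, of which 692 had 1 gene in the platform annotation, 869 several and 1876 no entry. Gene identifiers were matched to RefSeq's TAIR10.1 table for current symbols (690 found), and no coordinates or sequences are used. Arrays were quantile-normalized, values under the 10th percentile (0.0702) were set to it, log2 was taken, 188 probes that never exceeded this floor were dropped and 1 locus with several probes was averaged, which left 3248 features.

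Consecutive samples were averaged, since the deviations from the group mean correlated best with the consecutive sample in 12 of 12 cases (0.188 to 0.632, against at most 0.170 with any other). The margin was small for stn7 samples 1 and 2, at 0.188, and the 0.170 was that of stn7 sample 1 with WT sample 1. Groups were compared in R 4.3.3 with limma 3.58.1 (a linear model per feature with moderated variances), adjusted over all features, and the fit was tested on simulated data. Set centring subtracted the median deviation of each of 48 probe-number sets in each sample. Neighbour centring used probes within 6 positions and 2 cycles. Named are the 5 genes, every listed light-reaction gene with a probe of its own, and for each of the 5 the 2 genes of highest correlation. Of 32 markers of root, seed, pollen and senescent tissue 0 were on a probe of their own, so other tissues were not checked for. The genes, lists and alternatives were chosen with earlier results of these data known. Plots were made in Python 3.11.15 (matplotlib 3.10.9).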

Additional observations from a re-analysis of the deposited data

How the results depend on the processing

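The number of arrays, averaged to 3 replicates per group, set the precision, and signal over background is unknown. Against 494 features called, 12 separate samples gave 1283, samples 2, 4 and 6 alone 308 and set centring 184. Without 1 sample or 1 pair, with or without set centring, the count ran from 4 to 493. The 1 sample whose source name says mutant, set against the WT, gave 8 calls, with PSB27 at -0.83 log2 and not called, and this fit assumes that the lone sample varies like the WT. Some of these fits hold fewer samples; the cause was not tested further.

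PSB27 also missed the threshold when probes at the floor in all samples were kept (-0.81 log2, limma adjusted p = 0.0525) and with samples 2, 4 and 6 alone (-0.70 log2, limma adjusted p = 0.0726). Without 1 sample or 1 pair, with or without set centring, PSB27 ran from -0.97 to -0.57 log2. The sign of members that were not called turned in some settings. PSBW was at 0.025 log2 with samples 1, 3 and 5 alone, 0.16 log2 after set centring and 0.38 log2 after neighbour centring. It ran from -0.054 to 0.25 log2 without 1 sample or 1 pair, with or without set centring. LHB1B2 was at -0.058 log2 in the values as deposited and -0.29 log2 with median centring. It ran from -0.0085 to 0.41 log2 without 1 sample or 1 pair, with or without set centring. PSAN was at -0.0031 log2 with median centring. After neighbour centring LHB1B2 passed (0.52 log2), and the percentile differences of PSBW and LHB1B2 moved to 0.067 and 0.44 points. PSBY kept its direction in all 41 settings and passed in 0.

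Same-numbered pairs of stn7 and WT correlated in their deviations at 0.171, 0.120 and 0.0901, not all over 0.1, and each pair correlated best with its own number. Outside their own pair, stn7 and WT samples numbered 1, 2, 4, 5 and 6 were each other's best match, at 0.0963 to 0.170. Samples 3 were not. The numbers thus went together across groups, weakly, and no label states that they pair the samples. The main fit leaves such a pairing out, and the call of PSB27 depended on that choice. With the replicate block of the pair number 407 features were called and PSB27 (-0.81 log2, limma adjusted p = 0.0503) was not. With set centring and the block 117 were called, with PSB27 at -0.66 log2 and PSBW at 0.16 log2, neither called. On 12 separate samples the block gave 1442 calls, PSAN among them (0.38 log2, limma adjusted p = 0.00810). Of the listed light-reaction genes LPA19 was then called, 1 gene, as it was on 12 separate samples without the block. These last fits count consecutive samples as independent.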
